A study of Mus musculus with 15 samples.

Results

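Transcripts of the Atf4 stress response and of serine synthesis were followed in the A20 lymphoma line and in 4 Foxp1 CRISPR clones derived from it. The set was a fixed list of 10 genes, *Atf4*, *Ddit3*, *Trib3*, *Chac1*, *Sesn2*, *Asns*, *Phgdh*, *Psat1*, *Shmt2* and *Mthfd2*, taken by name from the 41388 genes counted in every library. All 10 had enough reads to be tested, among 13904 tested genes. A20 is a B-cell lymphoma line of BALB/c mice, and RNA was sequenced from the parental line, labelled wild type, from 2 clones mutated in *Foxp1* exon 6 (E6.1 and E6.2) and from 2 clones mutated in exon 7 (E7.1 and E7.2). Each clone was grown from a single edited cell, so that an edited line is 1 clone. Its 3 libraries came from different passages of that clone. The p values below therefore measure the spread between passages, and what a guide does cannot be told apart from what is particular to its clones. The comparison with parental cells addresses which transcripts differed between a clone mutated in *Foxp1*, a forkhead transcription factor, and the parental line. The parental line was not grown from a single edited cell. An effect of the mutation therefore cannot be told apart from effects of editing and cloning.

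*Foxp1* transcripts stood at 138 ± 32.7 CPM (counts scaled to library size and composition, SD, n = 3) in parental cells. They were lower in E7.1 (56.8 ± 13.0 CPM, log2 fold change -1.29, adjusted p = 0.00688 in the quasi-likelihood F test of edgeR, adjusted by Benjamini and Hochberg) and in E7.2 (43.0 ± 8.19 CPM, -1.69, adjusted p = 0.00116). In E6.1 (104 ± 4.60 CPM, adjusted p = 0.765) and E6.2 (106 ± 2.38 CPM, adjusted p = 0.417) the fall did not pass the threshold of 0.05. Libraries held from 26328054 to 39181530 counts, with a median of 35586010. All 8 B-cell marker genes examined were expressed, at a summed 4172 to 5611 CPM. Markers of T cells summed to 0.150 to 0.607 CPM, those of fibroblasts to at most 0.674 CPM and those of red cells to at most 0.264 CPM, and *Cd3e* had a count of 0 in every library. The 4 macrophage markers summed to 4.90 to 32.3 CPM, made up of *Cd68* (up to 30.4 CPM) and *Adgre1* (up to 7.56 CPM), with *Lyz2* at no more than 1 count and *Csf1r* at no more than 8. Their part in the results was not tested. Replicate 3 of E6.2, replicate 1 of E6.2 and replicate 3 of E7.2 stood farthest from the mean of their line over all tested genes (root mean square deviation 0.665, 0.604 and 0.540 on the log2 CPM scale, against a median of 0.334 over the 15 libraries).

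Atf4 is the transcription factor of the integrated stress response. When amino acids run short or misfolded proteins load the endoplasmic reticulum, kinases phosphorylate the translation factor eIF2 alpha, most protein synthesis falls, and the *Atf4* message is translated more. The Atf4 protein then binds composite sites shared with C/EBP factors and raises genes for amino acid synthesis, uptake and, in prolonged stress, cell death. *Phgdh*, *Psat1*, *Shmt2* and *Mthfd2* make serine and pass its carbon into the mitochondrial folate cycle, a supply on which proliferating lymphocytes draw for nucleotides. Because Atf4 is controlled largely at translation, its mRNA level need not follow the activity of the protein, and the protein was not measured in these libraries.

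The composite site is usually written as TGATGNAA. These letters were searched on both strands of RefSeq promoter windows (GRCm38.p6), each from 250 bases before to 50 bases after a transcript's start, and all 10 genes had a window. They occurred in 1303 of 32817 windows (3.97%), and in those of 3 of the 10 genes. The 30 bases around each match are shown because these are the members that hold the letters. Capitals mark the matching letters, read 5′ to 3′ on the strand of the gene.
Chac1, chr2:119351038-119351067, + strand: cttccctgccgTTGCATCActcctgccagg
Trib3, chr2:152344028-152344057, - strand: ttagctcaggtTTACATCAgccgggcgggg
Asns, chr6:7693214-7693243, - strand: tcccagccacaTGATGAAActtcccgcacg
In *Chac1* and *Trib3* the letters lie on the opposite strand, so that their reverse complement is printed. The match of *Chac1* begins 193 bases before the RefSeq start and that of *Asns* 23 bases before it. The match of *Trib3* begins at base 15 of the RefSeq transcript. In the annotation used for counting, *Trib3* starts at 152344032 and *Asns* at 7693254. By those starts the *Trib3* match lies before the gene and the *Asns* match within it. The stricter form TGATGCAA was found in 294 windows (0.896%) and, among the 10 genes, in *Chac1*. A match is a description of the letters and not evidence of a bound site, and the lack of a match in the other 7 genes says only that these letters are not in the windows searched. Of the 7 genes whose mean was lowest in E7.1, *Chac1*, *Trib3* and *Asns* held the letters, and *Atf4*, *Ddit3*, *Sesn2* and *Mthfd2* did not. The 250 bases before the start of *Phgdh* are printed as an example of a window with no match:
Phgdh, chr3:98339970-98340219, - strand: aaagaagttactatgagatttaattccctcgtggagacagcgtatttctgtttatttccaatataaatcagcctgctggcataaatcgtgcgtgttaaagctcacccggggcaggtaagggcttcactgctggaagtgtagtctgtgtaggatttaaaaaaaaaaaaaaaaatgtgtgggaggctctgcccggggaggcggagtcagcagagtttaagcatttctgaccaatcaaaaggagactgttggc

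Levels were first compared between genes per kilobase of exon, since longer transcripts collect more reads. In parental cells *Atf4* led at 390 ± 70.6 CPM per kb (SD, n = 3), followed by *Asns* at 331 ± 42.3 CPM per kb. The ranges of these 2 genes over the libraries overlapped, but *Atf4* was the higher within each parental library. *Psat1* (170 ± 10.6), *Shmt2* (136 ± 24.2), *Phgdh* (105 ± 15.6) and *Mthfd2* (82.9 ± 12.3 CPM per kb) came next. Each of these 4 serine and folate enzymes was above *Trib3* (42.7 ± 20.3), *Sesn2* (28.9 ± 7.97), *Chac1* (25.0 ± 3.67) and *Ddit3* (19.2 ± 7.06 CPM per kb) in every parental library. Ranges of neighbours in this order did not overlap at 3 places, between *Asns* and *Psat1*, between *Phgdh* and *Mthfd2*, and between *Mthfd2* and *Trib3*. Within each parental library *Psat1* was also above *Shmt2*, and *Shmt2* above *Phgdh*. The A20 line thus carried abundant mRNA for *Atf4*, asparagine synthetase and the serine enzymes in ordinary culture, and less for the feedback and cell death genes of the response. The fewest reads on any of the 10 genes in any library were 348, on *Ddit3*.

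**Figure D1:**
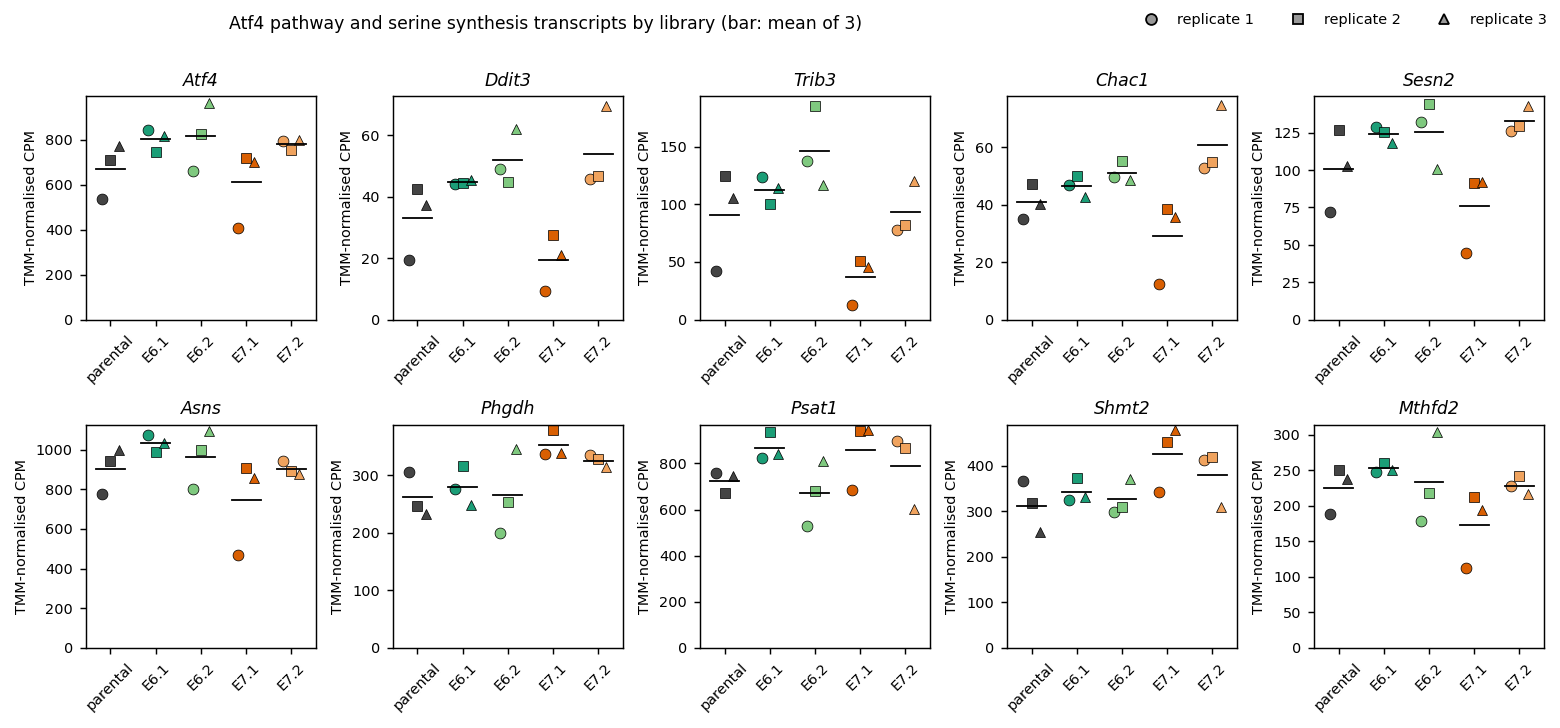
Normalised CPM (linear axis from 0) of each gene in each of the 15 libraries, by line, with marker shape for the replicate number and a bar at the mean of 3. For *Trib3* the mean is lowest in E7.1, whose libraries lie at 13.0 to 50.9 CPM with parental replicate 1 (42.0 CPM) among them, against 116 to 185 CPM in E6.2, while *Phgdh* in E7.1 lies at 337 to 379 CPM, above the 233 to 306 CPM of parental cells.

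*Atf4* (ENSMUSG00000042406, chromosome 15 of GRCm38, 80255184 to 80257540) was measured at 537, 708 and 772 CPM in parental replicates 1, 2 and 3. The E6.1 libraries held 846, 747 and 819 CPM and the E6.2 libraries 664, 826 and 966 CPM. E7.1 held 409, 721 and 703 CPM, and E7.2 held 796, 753 and 798 CPM. Replicate 1 of E7.1 was the lowest library of all 15 and replicate 1 of the parental line the next, and every clone overlapped the parental libraries. The log2 fold change against parental cells was -0.14 in E7.1, 0.22 in E7.2, 0.26 in E6.1 and 0.28 in E6.2, with a standard error of 0.22 in each, and none was called. For E7.1 the 95% interval of the change ran from 0.656 to 1.26 of the parental level.

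*Ddit3* (ENSMUSG00000025408, chromosome 10, 127290774 to 127296288), which encodes Chop, the factor that promotes cell death in unresolved stress, differed more between lines. Parental libraries held 19.3, 42.3 and 37.2 CPM, E6.1 libraries 44.3, 44.4 and 45.4 CPM, and E6.2 libraries 49.0, 44.8 and 62.2 CPM. E7.1 held 9.32, 27.7 and 21.0 CPM, and E7.2 held 45.6, 46.8 and 69.6 CPM. Every E7.1 library was thus below every library of the other 3 clones, and overlapped the parental range only at parental replicate 1. All libraries of E7.2, E6.1 and E6.2 lay above all parental libraries, with log2 fold changes of 0.71, 0.44 and 0.66 (SE 0.34 in each), none of which was called (adjusted p of 0.379, 0.936 and 0.422 from edgeR). In 81 bases (4.73% of its exonic length) *Ddit3* overlaps *Mars* and a predicted gene on the opposite strand, and counting did not use strand.

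*Trib3* (ENSMUSG00000032715, chromosome 2, 152337422 to 152344032) encodes a pseudokinase induced by Atf4 and Chop that feeds back to restrain them. It varied most of the 10, with line means from 36.6 ± 20.6 CPM in E7.1 to 146 ± 35.1 CPM in E6.2 (SD, n = 3), a ratio of 4.0. Parental libraries held 42.0, 124 and 106 CPM, E6.1 libraries 124, 99.9 and 114 CPM, and E6.2 libraries 137, 185 and 116 CPM. E7.1 held 13.0, 50.9 and 45.8 CPM, and E7.2 held 77.9, 82.3 and 120 CPM. All 3 E7.1 libraries were below every library of the other clones, but replicate 1 of the parental line was as low as they were. Against parental cells the log2 fold change in E7.1 was -1.31 (SE 0.44), or 2.48-fold lower, with an unadjusted p of 0.00941 and an adjusted p of 0.116 from edgeR. Without parental replicate 1 it was -1.63 and was called (adjusted p = 0.0342), and DESeq2 also called it on all libraries (log2 fold change -1.29, adjusted p = 0.0367). Most settings did not call it. Over 14 alternatives the change ranged from -1.63 to -0.90 and was called in 3, with an adjusted p of up to 0.397 from edgeR.

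*Chac1* (ENSMUSG00000027313, chromosome 2, 119351229 to 119354381), a glutathione-degrading enzyme downstream of Atf4 and Chop, stood at 35.2, 47.2 and 40.2 CPM in parental cells. E7.1 held 12.6, 38.5 and 35.9 CPM and E7.2 held 52.9, 54.9 and 74.6 CPM, so that E7.2 was above every parental library and E7.1 below 2 of the 3. The E6 clones lay at 42.6 to 49.9 CPM in E6.1 and 48.7 to 55.3 CPM in E6.2. *Sesn2* (ENSMUSG00000028893, chromosome 4, 132492032 to 132510501), a leucine-binding inhibitor of mTORC1 signalling, gave the same order of line means. It was measured at 44.8, 91.2 and 91.9 CPM in E7.1 and at 126, 129 and 143 CPM in E7.2, against 71.7, 127 and 103 CPM in parental cells. The E6 clones held 118 to 129 CPM (E6.1) and 101 to 144 CPM (E6.2). Against parental cells the log2 fold changes of *Chac1* were -0.50 (SE 0.30) in E7.1 and 0.57 (SE 0.30) in E7.2, and those of *Sesn2* -0.40 and 0.40 (SE 0.25 in each), none of them called.

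*Asns* (ENSMUSG00000029752, chromosome 6, 7675169 to 7693254), which makes asparagine and is the classical amino acid response gene, moved with *Atf4* from library to library. Its range was 775 to 997 CPM in parental cells, 989 to 1075 CPM in E6.1, 800 to 1094 CPM in E6.2 and 878 to 940 CPM in E7.2. The E7.1 libraries held 466, 908 and 859 CPM, and replicate 1 was again the lowest of the 15. Its log2 fold change against parental cells lay between -0.28 in E7.1 and 0.19 in E6.1 (SE 0.22 in each), and all lines overlapped the parental libraries.

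The serine pathway genes did not order the lines in the same way. *Phgdh* (ENSMUSG00000053398, chromosome 3, 98313170 to 98339990), the first enzyme of serine synthesis, was measured at 306, 247 and 233 CPM in parental cells, 337, 379 and 340 CPM in E7.1 and 335, 328 and 315 CPM in E7.2. All 6 E7 libraries were above all parental libraries. The E6 clones overlapped both, at 249 to 316 CPM in E6.1 and 199, 254 and 346 CPM in E6.2. The log2 fold changes against parental cells, 0.43 in E7.1 and 0.31 in E7.2 (SE 0.18 in each), were not called (adjusted p of 0.208 and 0.455 from edgeR).

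*Shmt2* (ENSMUSG00000025403, chromosome 10, 127517123 to 127522444), the mitochondrial enzyme that splits serine into glycine and a one-carbon unit, stood at 366, 318 and 255 CPM in parental cells. E7.1 held 343, 453 and 479 CPM, and only its replicate 1 fell within the parental range. The change in E7.1, 0.44 on the log2 scale (SE 0.18, unadjusted p = 0.0282), was the largest rise among the 10 genes in that clone and was not called (adjusted p = 0.192 from edgeR). E6.1 (326 to 373 CPM), E6.2 (298 to 372 CPM) and E7.2 (309 to 419 CPM) overlapped the parental libraries, and 30 bases (1.30%) of *Shmt2* exons overlap *Ndufa4l2* on the opposite strand.

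*Psat1* (ENSMUSG00000024640, chromosome 19, 15904678 to 15947337), the aminotransferase of the second step, held 674 to 757 CPM in parental cells and 821 to 938 CPM in E6.1, with no overlap and a log2 fold change of 0.26 (SE 0.20) that was not called (adjusted p = 0.943). Its other clones overlapped the parental libraries, at 527 to 812 CPM in E6.2, 684 to 946 CPM in E7.1 and 604 to 896 CPM in E7.2. *Mthfd2* (ENSMUSG00000005667, chromosome 6, 83305691 to 83317606), the mitochondrial folate dehydrogenase that follows *Shmt2*, resembled *Asns* more than the other serine enzymes. It held 188, 251 and 238 CPM in parental cells and 113, 212 and 194 CPM in E7.1, and its log2 fold change in E7.1 was -0.38 (SE 0.22). The remaining clones lay at 248 to 261 CPM (E6.1), 178 to 305 CPM (E6.2) and 216 to 242 CPM (E7.2).

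**Figure D2:**
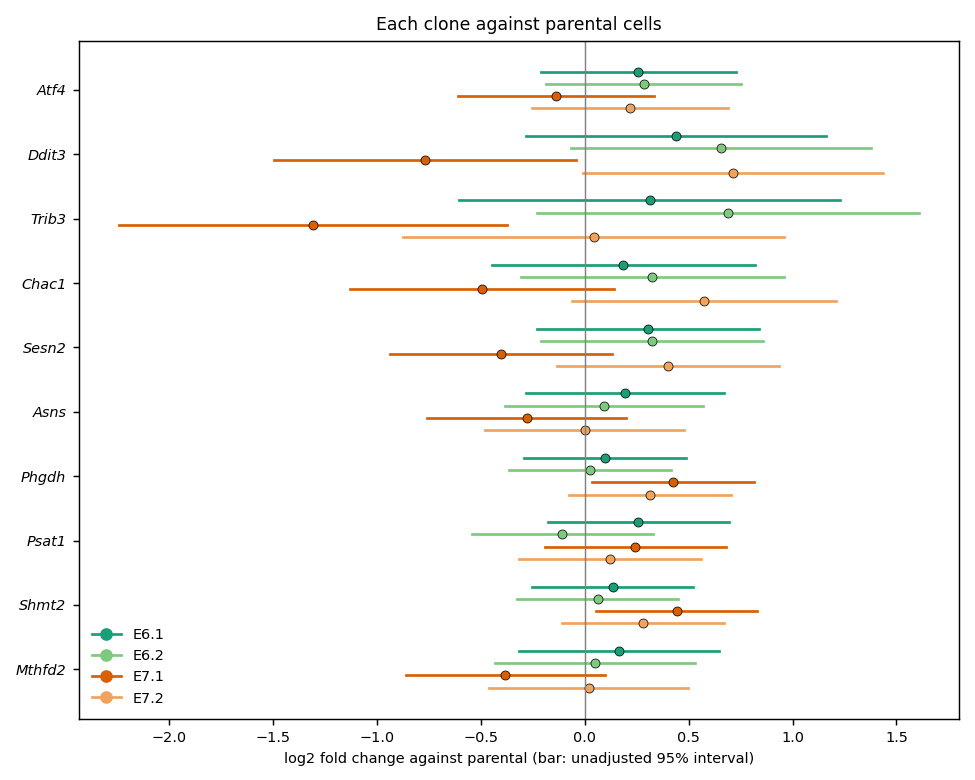
Log2 fold change of each gene in each clone against the same 3 parental libraries (points), with unadjusted 95% intervals from the edgeR fit (lines). In E7.1 the points run from -1.31 (*Trib3*) to 0.44 (*Shmt2*), and 0 of the 40 comparisons passed an adjusted p of 0.05.

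Counted over the list, 0 of the 10 genes were called by edgeR against parental cells in E7.1, where 1.22% of all tested genes were called, in E7.2 (0.295% of all genes), in E6.1 (0.324%) and in E6.2 (1.17%). At an unadjusted p under 0.05, the counts were 4 in E7.1 (20% of all genes), 0 in E7.2 (13.3%), 0 in E6.1 (6.71%) and 0 in E6.2 (13.1%). DESeq2 called 1 of them in E7.1, *Trib3*, beside 8.87% of all genes, and 0 in E7.2 (1.83%), E6.1 (1.12%) and E6.2 (2.87%). The 4 genes of E7.1 were *Trib3* and *Ddit3*, which were lower, and *Shmt2* and *Phgdh*, which were higher. The median log2 fold change of the 10 genes was -0.33 in E7.1, 0.25 in E7.2, 0.22 in E6.1 and 0.19 in E6.2, while the medians of all tested genes lay between -0.02 and 0.06. All 4 comparisons use the same parental libraries, of which replicate 1 was the lowest for 7 of the 10 genes, so the clones do not give independent evidence of a direction.

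Clones were then compared with each other, which leaves the parental libraries out of the difference. The mean of the E7 clones was set against the mean of the E6 clones, a comparison that called 12.1% of all tested genes and 1 of the 10. That gene was *Trib3*, lower in the E7 clones with a log2 fold change of -1.13 (SE 0.31, 2.19-fold, adjusted p = 0.0319 from edgeR). Libraries of the exon groups overlapped, since E7.2 replicate 3, at 120 CPM, lay among those of the E6 clones. At an unadjusted p under 0.05 there were 3 of the 10 (30.3% of all genes), with *Ddit3* lower (-0.58, SE 0.24) and *Phgdh* higher (0.31, SE 0.13) in the E7 clones. The *Trib3* call was lost in each of 6 fits that left out 1 library, namely replicates 1 and 3 of E6.1, 1 and 2 of E6.2, and 1 and 2 of E7.2, where the adjusted p lay between 0.0557 and 0.0851.

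Between single clones, edgeR called *Trib3* only in E7.1 against E6.2, the lines with its lowest and highest mean. The difference of E7.2 from E7.1, 1.35 on the log2 scale, was not called (adjusted p = 0.235 from edgeR). Against E6.2, E7.1 had 2 of the 10 genes called (16.9% of all genes), *Trib3* at a log2 fold change of -2.0 (SE 0.44, 4.0-fold lower, adjusted p = 0.0126 from edgeR) and *Ddit3* at -1.43 (SE 0.34, 2.69-fold lower, adjusted p = 0.0164). For both genes all E7.1 libraries lay below all E6.2 libraries, which is descriptive, as the share of all tested genes so separated was not computed. At an unadjusted p under 0.05 there were 5 (34.1% of all genes), the others being *Chac1* (-0.82), *Sesn2* (-0.73) and, higher in E7.1, *Phgdh* (0.40). Without replicate 1 of E7.1 the *Trib3* difference was -1.59 (adjusted p = 0.0382) and that of *Ddit3* was -1.09, no longer called (adjusted p = 0.0609). When replicate 3 was left out of both E6.2 and E7.2, 2 of the libraries farthest from their line, both stayed past the threshold and *Sesn2*, *Psat1*, *Phgdh* and *Shmt2* also passed, the 3 serine enzymes higher in E7.1, while the share of all genes called rose to 34.9%. DESeq2 called 4 of the 10, beside 24.2% of all genes.

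Against E6.1, 0 of the 10 genes were called in E7.1 by edgeR (3.24% of all genes), with *Trib3* at -1.62 (adjusted p = 0.0578) and *Ddit3* at -1.21 (adjusted p = 0.0638) just outside the threshold. DESeq2 called both, beside 11.5% of all genes. With no adjustment, 5 had a p under 0.05 (22.3% of all genes), *Trib3*, *Ddit3*, *Sesn2* (-0.71), *Chac1* (-0.68) and *Mthfd2* (-0.55), all lower in E7.1. E7.2 against E7.1, the clones of the same exon, likewise gave 0 calls by edgeR (0.59% of all genes) and 2 by DESeq2 (2.07% of all genes), *Ddit3* and *Chac1*. Before adjustment 4 had a p under 0.05 (13.3% of all genes), all higher in E7.2, namely *Ddit3* (log2 fold change 1.48, SE 0.34, adjusted p = 0.0826), *Trib3* (1.35), *Chac1* (1.07) and *Sesn2* (0.81). For each of these 4 genes, and for *Atf4* and *Mthfd2*, every E7.2 library was above every E7.1 library. For *Phgdh* every E7.2 library was below. The share of all tested genes without overlap was not computed for this or the other comparisons, so each such separation is descriptive.

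The remaining pairs showed less. With edgeR 0 of the 10 genes were called in E6.2 against E6.1 (1.24% of all genes), in E7.2 against E6.1 (0.352%) or in E7.2 against E6.2 (2.24%), and DESeq2 called 0 in each (3.23%, 1.73% and 6.99% of all genes). At an unadjusted p under 0.05 there were also 0 in each, beside 12.9%, 11.6% and 19.1% of all genes. For *Trib3* the difference between E7.2 and E6.1 was -0.27 with a 95% interval from -1.19 to 0.65, and between E7.2 and E6.2 -0.65 with an interval from -1.57 to 0.27, and both intervals include a fall of over 2-fold. A joint test of any difference among the 5 lines called 0 of the 10 by edgeR (6.28% of all genes) and 2, *Ddit3* and *Trib3*, by DESeq2 (22.6% of all genes). At an unadjusted p under 0.05 it gave 4 (27.8% of all genes), *Ddit3* (adjusted p = 0.063), *Trib3* (0.0785), *Chac1* (0.15) and *Sesn2* (0.16).

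By coefficient of variation, passages of E7.1 differed more than those of the other lines in *Atf4*, *Ddit3*, *Trib3*, *Chac1*, *Sesn2*, *Asns* and *Mthfd2*. This did not hold for *Phgdh* (6.64% in E7.1, 27.8% in E6.2) or *Psat1* (17.5% in E7.1, 21.2% in E6.2). Nor did it hold for *Shmt2* (16.9% in E7.1, 17.8% in parental cells). E7.1 replicate 1 was the lowest library of its line for all 10 genes, a position it held for 38.7% of all tested genes. Set against the mean of replicates 2 and 3, it was 3.71-fold lower for *Trib3*, 2.96-fold for *Chac1*, 2.61-fold for *Ddit3*, 2.04-fold for *Sesn2*, 1.89-fold for *Asns* and 1.74-fold for *Atf4*, while among the serine genes it was 1.80-fold lower for *Mthfd2*, 1.38-fold for *Psat1*, 1.36-fold for *Shmt2* and 1.06-fold for *Phgdh*. The median coefficient of variation of the 10 genes in E7.1 was 31.5%, beside 14.1% for all tested genes, whereas it was below that of all genes in E6.1 (6.79% beside 10.01%), E6.2 (18.1% beside 27.2%) and E7.2 (11.5% beside 18.1%) and near it in parental cells (16.3% beside 15.3%). This library had 37502888 counts and 4.18% of them on mitochondrial genes, both within the range of the others (0.848% to 10.4%). Parental replicate 1 was the lowest of its line for *Atf4*, *Ddit3*, *Asns*, *Chac1*, *Trib3*, *Mthfd2* and *Sesn2* (39.8% of all genes), and the highest for *Phgdh*, *Psat1* and *Shmt2*.

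**Figure D3:**
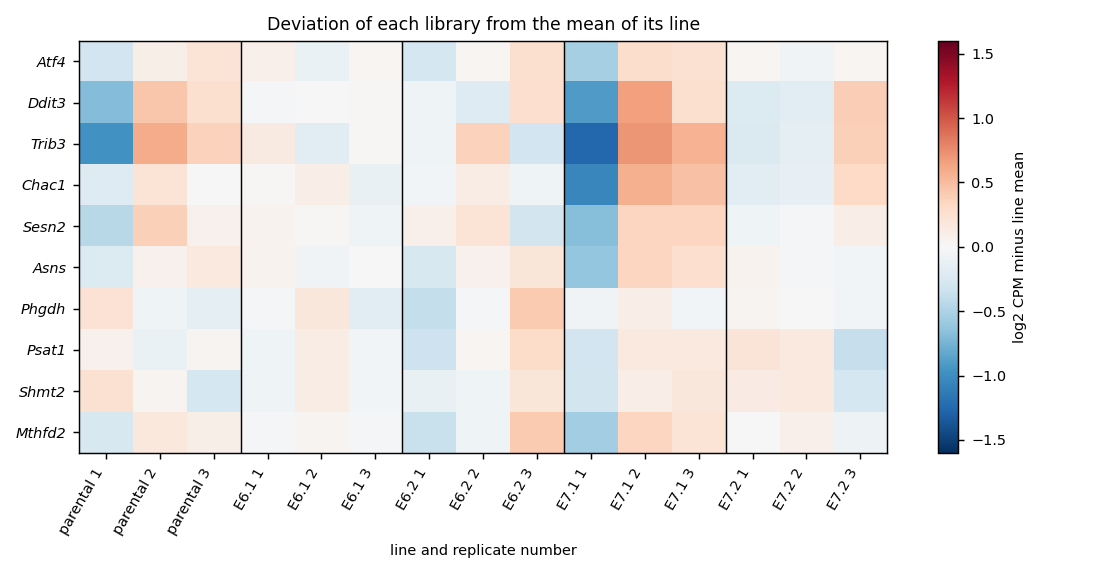
Deviation of log2 CPM from the mean of the line (colour) for each gene in each of the 15 libraries, grouped by line. The stress genes from *Atf4* to *Asns* are blue in replicate 1 of E7.1 and of the parental line, while *Phgdh* is near 0 in the first and red in the second of these.

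The same deviations describe which of the genes varied together between passages, after the mean of each line was taken off. Over the 15 libraries the 15 pairs among *Atf4*, *Ddit3*, *Trib3*, *Chac1*, *Sesn2* and *Asns* had Pearson correlations from 0.675 to 0.973, with a median of 0.825. The 6 pairs among *Phgdh*, *Psat1*, *Shmt2* and *Mthfd2* ranged from 0.453 to 0.780 (median 0.639). Between the groups, the 18 pairs without *Mthfd2* had a median of 0.15 and reached from -0.314 for *Phgdh* with *Sesn2* to 0.645 for *Psat1* with *Asns*. *Mthfd2* had 0.551 to 0.925 against the stress genes (median 0.747). Part of this rested on replicate 1 of E7.1 and of the parental line. Without these 2 libraries the median was 0.573 among the stress genes (0.181 to 0.959) and 0.718 among the serine genes (0.581 to 0.763), and *Mthfd2* had 0.0187 to 0.858 against the stress genes (median 0.475). The points share the depth and composition of their library and 3 of them share each line's mean, so these values are descriptive.

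*Asns* was the gene most like *Atf4* of all those tested (Pearson r = 0.973 over 15 libraries), followed by *Maf1* (0.964), a repressor of RNA polymerase III, and *Asrgl1* (0.959), an asparaginase-like enzyme. *Mthfd2* was the 13th (0.922). *Ddit3* (0.852), *Trib3* (0.799), *Chac1* (0.761) and *Sesn2* (0.675) were also beyond 0.655, the 95th percentile over all genes, and *Psat1* (0.556), *Shmt2* (0.255) and *Phgdh* (0.208) were not. Without the same 2 libraries the correlation with *Atf4* was still 0.959 for *Asns* and 0.849 for *Mthfd2*, but 0.640 for *Ddit3*, 0.483 for *Trib3*, 0.462 for *Chac1* and 0.181 for *Sesn2*. *Trib3* and *Sesn2* remained close to each other (0.961 with all libraries and 0.897 without these 2). The genes most like *Ddit3* were *Abcd4*, a vitamin B12 transporter of the lysosome (0.982), *Zfp580* (0.956) and *Stard5*, a sterol-binding protein (0.955).

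**Figure D4:**
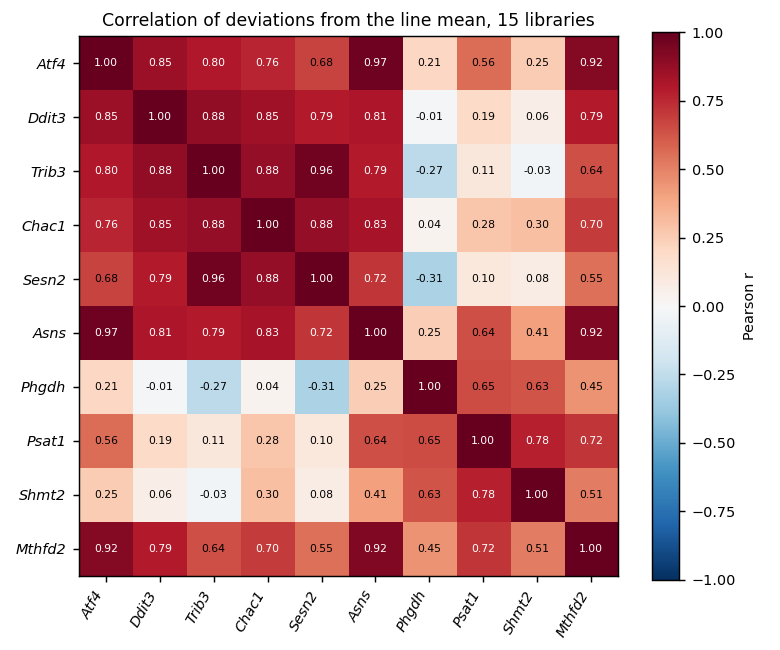
Pearson correlation, over 15 libraries, of the deviations from the line mean for each pair of the 10 genes. The block from *Atf4* to *Asns* is dark red (0.675 to 0.973), *Phgdh* is pale or blue against *Trib3* and *Sesn2*, and *Mthfd2* is red against both blocks. Without replicate 1 of E7.1 and of the parental line, not shown, the stress block ranges from 0.181 to 0.959.

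Further genes of the pathway were taken from 6 lists, in which 62 of 70 genes had enough reads to be tested. Against parental cells edgeR called 0 of the 62 in E7.1, 0 in E7.2, 0 in E6.1 and 1 in E6.2, and 15, 5, 2 and 7 had an unadjusted p under 0.05, beside 20%, 13.3%, 6.71% and 13.1% of all genes. The called gene was *Slc7a11*, the cystine and glutamate exchanger. It had between 544 and 1523 counts in parental libraries (16.4 to 40.7 CPM) and 0 counts in all 3 E6.2 libraries, at least 297-fold lower when set against a floor of 3 counts per library (adjusted p = 0.000197 from edgeR). It held 27.2 to 38.0 CPM in E6.1, 6.05 to 16.6 CPM in E7.1 and 3.69 to 20.8 CPM in E7.2, and it was also called in every comparison of other clones with E6.2.

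Of the partner and target transcription factors of *Atf4*, 5 of 6 were tested, with a median log2 fold change against parental cells of -1.02 in E7.1, -0.19 in E7.2, -0.02 in E6.1 and 0.13 in E6.2. *Cebpg*, which pairs with Atf4 on its sites, held 105 to 149 CPM in E7.1 and 168 to 336 CPM in parental cells (log2 fold change -1.03, SE 0.25, adjusted p = 0.0547 from edgeR). It was called lower in E7.1 than in E6.1 (-1.01, adjusted p = 0.044) and E6.2 (-1.17, adjusted p = 0.0101) and in the E7 than in the E6 clones (-0.83, adjusted p = 0.012). *Cebpb* was also lower in E7.1 than in E6.2 (-1.47, adjusted p = 0.0208). *Jdp2* was not called in any comparison, and its level in E7.2 ranged from 11.96 to 24.5 CPM.

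The regulators of eIF2 alpha moved little as a group, with list medians from 0.04 to 0.15 against parental cells over the 4 clones. An exception was *Ppp1r15a* (Gadd34), the stress-induced phosphatase subunit that ends the response. It held 14.8, 28.4 and 22.4 CPM in E7.1 against 23.2, 67.3 and 64.0 CPM in parental cells and 104, 93.6 and 105 CPM in E6.2. It was called lower in E7.1 than in E6.2 (log2 fold change -2.21, adjusted p = 0.0045) and E6.1 (-1.73, adjusted p = 0.0307). It was also called lower in the E7 than in the E6 clones (-1.26, adjusted p = 0.0122). E7.2 held 44.7, 43.5 and 87.6 CPM and was not called against E6.1 (-0.31, adjusted p = 0.749 from edgeR) or E6.2 (-0.79, adjusted p = 0.262). The difference of E7.1 from parental cells was not called either (-1.23, adjusted p = 0.0946 from edgeR). *Eif2b3*, a subunit of the eIF2 exchange factor, was called lower in E7.2 than in E7.1 (-0.66, adjusted p = 0.0128) and than in E6.2 (-0.57, adjusted p = 0.013), and higher in E7.1 than in E6.1 (0.53, adjusted p = 0.0277). *Eif2b2* was lower in the E7 than in the E6 clones (-0.38, adjusted p = 0.0465) and in E7.1 than in E6.2 (-0.52, adjusted p = 0.0409).

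Among the 9 amino acid transporters the median log2 fold change in E7.1 against parental cells was -0.61, and in the other clones it lay between 0.05 and 0.16. *Slc38a2*, the amino acid response transporter of neutral amino acids, was called lower in E7.1 than in E6.1 (-0.66, adjusted p = 0.0464) and E6.2 (-0.65, adjusted p = 0.0195) and in the E7 than in the E6 clones (-0.50, adjusted p = 0.0175). *Slc6a9*, the glycine transporter, was lower in E7.1 than in E6.2 (-1.60, adjusted p = 0.0207). The list of aminoacyl-tRNA synthetases and *Xpot*, 13 genes together, had medians of -0.13 in E7.1, 0.09 in E7.2, 0.21 in E6.1 and 0.22 in E6.2. Of these, *Wars* and *Yars* were called, both lower in E7.1 than in E6.2 (-1.06 and -0.57, adjusted p of 0.0433 and 0.0379). *Wars* was also called lower in the E7 clones (-0.78, adjusted p = 0.045).

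Of 9 other tested Atf4 targets, *Pycr1* (proline synthesis) and *Vegfa* were called lower in E7.1 than in E6.2 (-1.24 and -0.86, adjusted p of 0.027 and 0.0397). *Ddit4* (Redd1), an inhibitor of mTORC1, was higher in E7.2, at 44.6 to 78.6 CPM, than in E7.1 (14.0 to 26.4 CPM, log2 fold change 1.38, adjusted p = 0.0372) and E6.2 (1.31, adjusted p = 0.022). In the serine, glycine and one-carbon list, 14 of 17 genes were tested, with a median of 0.25 in E7.1 and of -0.01 to 0.13 in E6.1 and E7.2 and -0.15 in E6.2. *Mthfd1*, the cytosolic folate enzyme, was higher in E7.1 than in E6.2 (0.88, adjusted p = 0.0109), as were *Gcsh* of the glycine cleavage system (0.74, adjusted p = 0.0164) and methionine synthase *Mtr* (0.59, adjusted p = 0.0292), while the mitochondrial *Aldh1l2* was lower (-2.26, adjusted p = 0.0449). *Mthfd1* and *Gcsh* were also called higher in the E7 than in the E6 clones (0.48 and 0.44). Over all lists 15 of 62 genes (24.2%) were called in E7.1 against E6.2, where 16.9% of all tested genes were, and 8 of 62 (12.9%) in the E7 against the E6 clones, where 12.1% were.

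Replicate 1 of E7.1 was also the lowest of its line in 5 of 5 transcription factors, 8 of 9 transporters and 8 of 9 other targets. In the list of synthetases and *Xpot* it was the lowest in 11 of 13 genes. Among serine and one-carbon genes it was the lowest in 6 of 14, and among eIF2 alpha regulators in 3 of 12. The share over all tested genes was 38.7%. The median deviation of the other targets was -0.78 in this library. Parental replicate 1 was the lowest of its line in 4 of 5 transcription factors, 6 of 9 transporters and 9 of 12 eIF2 alpha regulators. In the list of synthetases and *Xpot* it was the lowest in 12 of 13 genes. It was the lowest in 4 of 9 other targets and 6 of 14 serine and one-carbon genes. The share over all tested genes was 39.8%. The other targets were thus mostly low in the E7.1 library, with a median deviation of -0.06 in the parental one, and the eIF2 alpha regulators mostly low in the parental library (-0.20) and not in that of E7.1 (0.06).

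**Figure D5:**
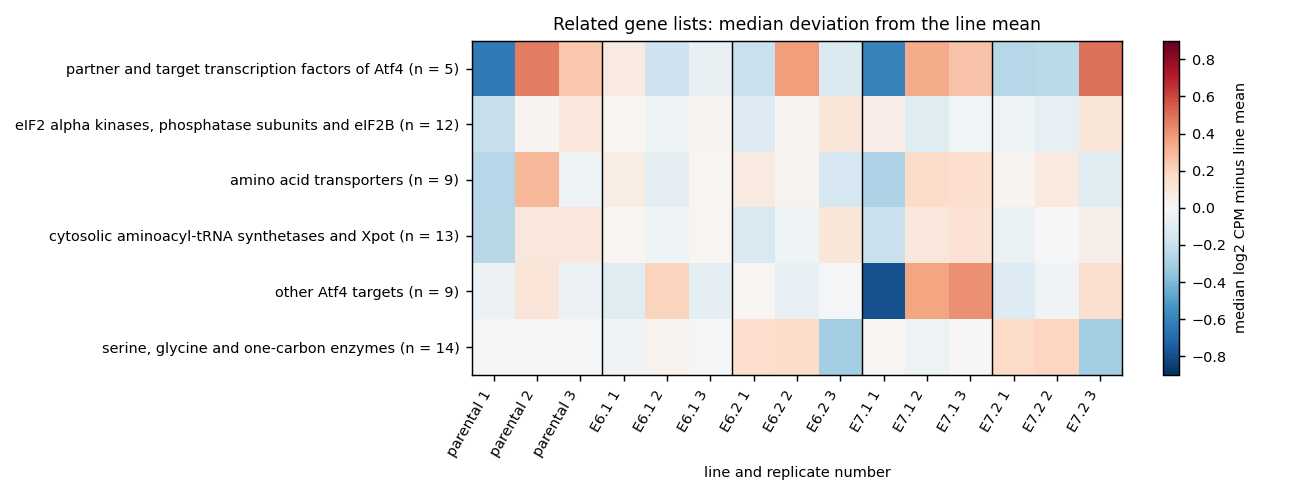
Median deviation from the line mean (colour, log2 CPM) of each pathway list in each of the 15 libraries, with the number of tested genes per list. Replicate 1 of E7.1 is blue for the transcription factors (-0.60) and other targets (-0.78) and near 0 for the serine, glycine and one-carbon enzymes (0.02).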

How the data were processed

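RNA was sequenced from 15 libraries, 3 from each of 5 lines. The authors deposited raw counts of read pairs per gene. Per the file headers and the submitters' processing notes, reads were aligned with HISAT, handled with SAMtools and counted with featureCounts 1.5.0 on GRCm38 with spike-ins, in pairs, without strand, leaving out pairs that mapped to several places or overlapped several genes. The 92 spike-ins had a total count of 0. Symbols came from the reference annotation (40254 of 41388 genes). The 10 genes and the pathway lists were chosen with earlier results of these data known.

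Counts were analysed in R 4.3.3 with edgeR 4.0.16 (filterByExpr, TMM, glmQLFit and glmQLFTest), in a single model of all 15 libraries whose only term was the line. Benjamini-Hochberg adjustment ran over 13904 genes in each comparison, and calls needed an adjusted p below 0.05. Levels are TMM-normalised CPM, and per kb divides them by exonic length. Deviations are of log2 CPM (prior count 2) from the line mean. The floor of 3 counts equals 0.0751 to 0.118 CPM and, as intervals do, covers only what it is built from (counting error for the floor, passage spread for intervals). Within a line no 2 libraries were copies, with chi-square per degree of freedom of 31.7 to 668 between them. Pairs from different lines were not checked in this way. Scripts were tested on simulated counts with changes set in E7.1 only. Against parental cells, 82 of 100 4-fold changes and 38 of 100 2-fold changes were called, with 6 false calls.

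The members were all named. From each list the text named the genes called against parental cells or, where there were none, the 2 with the smallest p in the joint test. The genes most like *Atf4* and *Ddit3* were the 3 with the highest Pearson r. *Eif2b2*, *Cebpb*, *Slc38a2*, *Slc6a9*, *Vegfa*, *Mtr* and *Aldh1l2* were named after their values were seen, to complete the called genes. Alternatives were DESeq2 1.42.0 (shares of calls over the genes it gave an adjusted p), its size factors within edgeR, no filter, edgeR's newer quasi-likelihood method, a replicate block, the 6 libraries compared, each library left out in turn, replicate 3 of both E6.2 and E7.2 left out, and, chosen after seeing the data, replicate 1 of both the parental line and E7.1 left out.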

Additional observations from a re-analysis of the deposited data

Results flagged for a closer look

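Between clones, *Trib3* and *Ddit3* were called. Of the 10 genes, 1 was called between the exon groups (12.1% of all tested genes) and 2 in E7.1 against E6.2 (16.9%). The joint test of the 5 lines called 0 of the 10 (6.28% of all genes). Its adjusted p from edgeR was 0.063 for *Ddit3* and 0.0785 for *Trib3*. *Trib3* was lower in the E7 than in the E6 clones, with a log2 fold change of -1.13 (adjusted p = 0.0319 in the quasi-likelihood F test of edgeR, adjusted by Benjamini and Hochberg), and lower in E7.1 than in E6.2 (-2.0, adjusted p = 0.0126). *Ddit3* was lower in E7.1 than in E6.2 (-1.43, adjusted p = 0.0164). Each is a test of the difference between clones itself, and in each case E7.1 held the lowest libraries. *Trib3* in E7.1 against E6.2 was past the threshold in 14 of 14 alternatives, *Ddit3* in 12 of 14, and *Trib3* between the exon groups in 13 of 19.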

How the results depend on the processing

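Against parental cells the count of 0 called genes became 1 in E7.1 with DESeq2 (*Trib3*), without replicate 3 of both E6.2 and E7.2 (*Phgdh*, beside 15.2% of all genes against 1.22%) and without replicate 1 of both the parental line and E7.1 (*Trib3*), and ranged from 0 to 1 when single libraries were left out, with the 1 (*Trib3*) arising without parental replicate 1. In the other 3 clones it stayed at 0. Between the exon groups the count of 1 was 3 without both replicates 3 (33.1% of all genes against 12.1%) and 0 to 2 with single libraries left out. For E7.1 against E6.1 it rose from 0 to 2 with no filter, DESeq2, the replicate block, the 6 libraries alone and without both replicates 3 (2.41%, 11.5%, 2.99%, 23.1% and 17.8% of all genes against 3.24%), to 1 without both replicates 1, and was 0 to 2 with single libraries left out. For E7.1 against E6.2 it moved from 2 to 4 with DESeq2 and the replicate block, to 1 with the 6 libraries alone, to 6 without both replicates 3 (24.2%, 15.1%, 6.21% and 34.9% of all genes against 16.9%), and to 1 to 4 with single libraries left out (1 without E7.1 replicate 1, 4 without E6.2 replicate 3). For E7.2 against E7.1 it rose from 0 to 1 with no filter, with the replicate block and without both replicates 1, and to 2 with DESeq2 (0.585%, 0.676%, 0.354% and 2.07% of all genes against 0.59%). For E7.2 against E6.2 it was 1 without both replicates 3 (17% of all genes against 2.24%) and 0 to 1 with single libraries left out (*Phgdh*, without E6.2 replicate 3). In the joint test it rose from 0 to 2 with no filter, DESeq2, the replicate block, and without both replicates 3 or both replicates 1 (6.53%, 22.6%, 5.23%, 28.6% and 4.97% of all genes against 6.28%), and was 0 to 2 with single libraries left out. The cause of these shifts was not tested.

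The replicate block adds the replicate number of the labels. Only 11 of 30 same-numbered pairs of libraries from different lines had deviations that correlated above 0.1 (range -0.124 to 0.426), so the numbers were not taken to pair the samples across all lines. E6.2 and E7.2 were an exception, as all 3 of their same-numbered pairs exceeded 0.1 (0.174, 0.276 and 0.426), and with the block 0 of the 10 genes were called between them, as without it. As a hint from the data and not the design, 10 of 15 libraries were most like those of their own number.

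Of 10 genes in 4 clones, 10 log2 fold changes against parental cells changed sign in some setting, all below 0.32 in size and none called. Without both replicates 3, E6.2 values were -0.011 for *Asns*, -0.21 for *Phgdh*, -0.047 for *Shmt2* and -0.19 for *Mthfd2*, and E7.2 values 0.055 for *Asns* and -0.14 for *Trib3*. Without both replicates 1 they were -0.034 for *Trib3* in E6.1, -0.00016 for *Asns* and -0.062 for *Mthfd2* in E6.2, and -0.28 for *Trib3* and -0.073 for *Mthfd2* in E7.2. *Asns* in E7.2, at -0.00076 as reported, was 0.019 with DESeq2 and with its size factors, 0.0050 with no filter, 0.017 with the replicate block and 0.017 with the 6 libraries alone. With single libraries left out, *Trib3* in E6.1 ranged from -0.035 to 0.61 and *Atf4* in E7.1 from -0.27 to 0.084. In E6.2 the ranges were -0.00071 to 0.20 for *Asns*, -0.25 to 0.026 for *Psat1*, -0.19 to 0.18 for *Phgdh*, -0.068 to 0.20 for *Shmt2* and -0.17 to 0.20 for *Mthfd2*. In E7.2 they were -0.077 to 0.078 for *Asns*, -0.28 to 0.34 for *Trib3* and -0.074 to 0.10 for *Mthfd2*. Of 607 alternative values, 560 kept their direction and side of the threshold and 35 changed sign. A further 8 fell short of the threshold and 4 newly passed it. These counts cover the 10 genes in the 4 clones against parental cells and the *Trib3* and *Ddit3* calls between clones. Other comparisons between clones are not among them, and their newly called genes are counted by setting above.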
